A study of Saccharomyces cerevisiae with 15 samples.

Results

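The unfolded protein response genes described here are HAC1 (YFL031W), IRE1 (YHR079C) and 8 genes that act in the endoplasmic reticulum (ER): KAR2 (YJL034W), LHS1 (YKL073W), SCJ1 (YMR214W), JEM1 (YJL073W), PDI1 (YCL043C), EUG1 (YDR518W), ERO1 (YML130C) and DER1 (YBR201W). They were taken by their identifiers, 10 of the 7127 listed in every library, and all 10 passed the filters on low counts in each fit. RNA-seq and ribosome profiling, which sequences the mRNA fragments that ribosomes protect from nuclease, had been run on budding yeast in 15 libraries of 8 groups. There were 2 libraries a group, with the exception of old deletion RNA-seq, where there was 1.

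All cells were of the Mother Enrichment Program strain UCC8773 or derived from it, a background in which estradiol keeps newly born daughters from multiplying. The wild-type cells were that strain itself, and the cth2 deletion (cth2Δ) was its derivative without CTH2, listed as TIS11, which encodes an RNA-binding protein that promotes the decay of mRNAs with AU-rich elements. After a preculture with nourseothricin and hygromycin B and surface labelling with biotin, cells of both strains grew in YPD with 17β-estradiol. Young cells were recovered on magnetic beads after 2 h and old mothers after 30 h. The labels do not say how many mothers or daughters each bead sample held, whether replicates came from separate cultures, or whether the deletion was more than 1 clone, so p-values measure the spread between these libraries. In bulk lysates of this kind, fewer cells of a type and less RNA per cell cannot be told apart.

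The unfolded protein response links the folding load of the ER to transcription. When unfolded proteins build up, the membrane sensor Ire1 cuts the HAC1 mRNA and tRNA ligase (TRL1) joins the ends, so that an intron is removed in the cytoplasm and not by the spliceosome. The unspliced mRNA is held back from translation by base pairing between its intron and its 5′ leader. The spliced mRNA yields the transcription factor Hac1, which binds promoters of ER chaperone, oxidoreductase and degradation genes.

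The parts of HAC1 on which this control rests are shown because HAC1 had the largest footprint change of the 10 genes in each comparison of age. HAC1 lies on chromosome VI, plus strand, at 75179 to 76147 of the R64 assembly, with coding exons of 661 and 56 bases around an intron of 252 bases. In the RefSeq sequence of that assembly the spliced reading frame has 238 codons, of which 220 come whole from the first exon, while the unspliced frame reads on to a stop codon in the intron and has 230. The junctions are printed with exon bases in capitals, and the stretches of the leader and the intron in capitals are exact reverse complements of each other over 11 bases.
5′ splice junction, chrVI:75820-75859: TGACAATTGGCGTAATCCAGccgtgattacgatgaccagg
3′ splice junction, chrVI:76072-76111: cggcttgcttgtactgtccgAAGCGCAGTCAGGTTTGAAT
Leader stretch, chrVI:75147-75157: CTCCTCCCCCA
Intron stretch, chrVI:75944-75954: TGGGGGAGGAG
The leader stretch begins 32 bases before the start codon, and the intron stretch spans intron bases 105 to 115. The deposited gene length of 717 bases equals the 2 coding exons together. Counts of this kind do not separate spliced from unspliced HAC1 mRNA, so the splicing state was not measured.

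The HAC1 mRNA level differed little between groups, whereas its footprint level was several times higher in old than in young cells. In CPM, counts scaled to library size with trimmed-mean (TMM) factors, HAC1 mRNA was at 583 and 460 in the young wild-type libraries and at 477 and 393 in the old ones. The young deletion libraries had 496 and 699, and the old deletion library had 472. The groups overlapped in mRNA, and the highest and the lowest library were replicates of young deletion and old wild type.

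HAC1 footprints in young wild-type cells were at 9.31 CPM (33 counts; exact Poisson 95% interval 6.41 to 13.1, which covers counting error only) and 4.74 CPM (17 counts, 2.76 to 7.58). Old wild-type cells had 29.0 CPM (140 counts) and 34.2 CPM (151 counts). Young deletion cells had 3.89 CPM (11 counts) and 11.0 CPM (58 counts), and old deletion cells had 89.3 CPM (170 counts) and 66.7 CPM (213 counts). Both old groups thus lay above both young groups without overlap, and the old deletion libraries lay above the old wild-type libraries. The young libraries of the same strain differed from each other by more than their counting intervals in the deletion strain, and the mean ± SD there was 7.46 ± 5.04 CPM (n = 2).

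**Figure D1:**
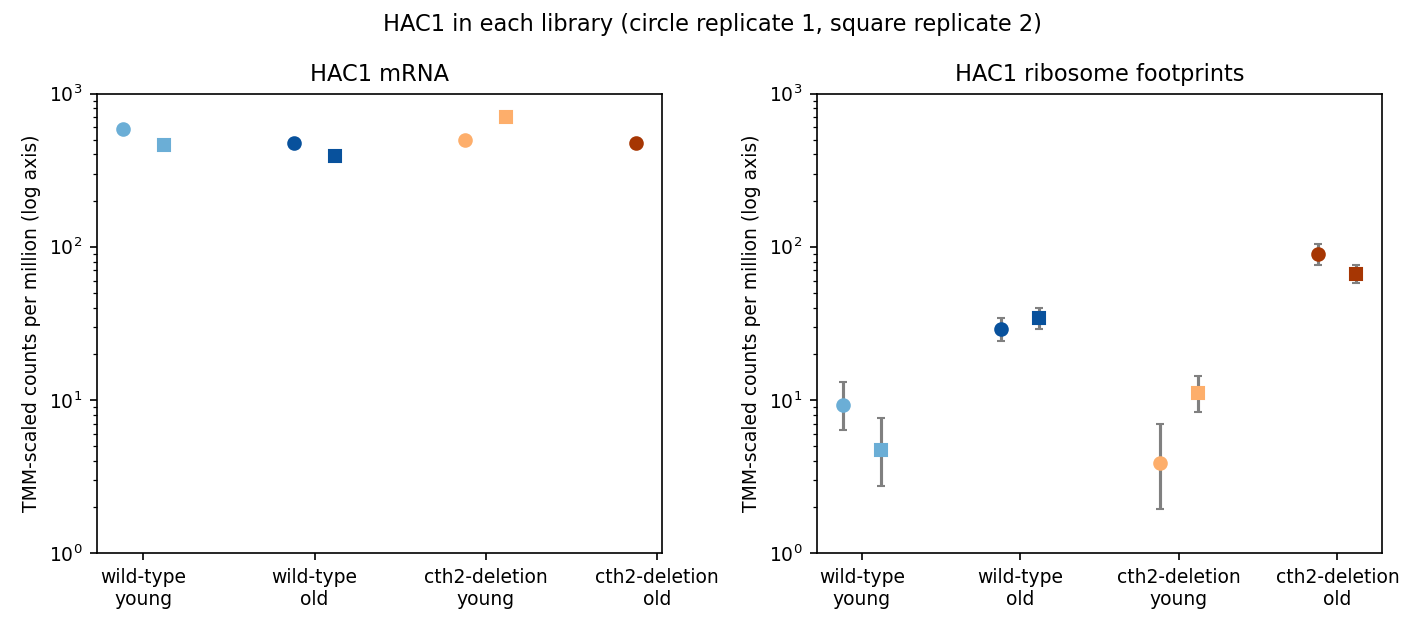
HAC1 mRNA (left) and HAC1 ribosome footprints (right) in each library, as TMM-scaled CPM on a log axis, with circles for replicate 1, squares for replicate 2 and grey bars for the exact Poisson 95% interval. All mRNA points lie between 393 and 699, while footprints run from 3.89 in a young deletion library to 89.3 in an old one.

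Tested with edgeR's quasi-likelihood fit and Benjamini-Hochberg adjustment over all genes, HAC1 footprints rose in the old deletion strain, by a log2 fold change of 3.29 (SE 0.46, 9.75-fold, adjusted p = 0.00968). This was the 44th highest change of the 5308 genes tested, and 17.2% of those genes were called in that comparison. Without young deletion replicate 2 the log2 fold change of HAC1 was 4.30, and without young deletion replicate 1 it was 2.81, both called. In 2 of the 12 alternatives the call was lost, at adjusted p = 0.0813 without old deletion replicate 1 and 0.0662 without old deletion replicate 2. In the wild type the log2 fold change of HAC1 footprints with age was 2.17 (SE 0.46, 4.49-fold), the 85th highest of 5308, and it missed the threshold (adjusted p = 0.0608) where 2.98% of genes were called. DESeq2 called it (adjusted p = 0.000879), and over 12 alternatives the adjusted p ran from 4.46e-10 to 0.362, with 3 under 0.05.

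The age change of HAC1 footprints did not pass the test of a difference between the strains. The difference of the log2 fold changes was 1.12 (SE 0.65, unadjusted p = 0.128, adjusted p = 1), and no gene of 5308 was called in that comparison (0%, with 152 at an unadjusted p under 0.05 and 4 called by DESeq2). Over 14 alternatives the difference for HAC1 ran from 0.54 to 2.14, and 1 of them called it, a replicate block with the young numbers crossed between strains, chosen after seeing the data (adjusted p = 0.0427, with the others up to 1). HAC1 mRNA had a log2 fold change with age of -0.26 in the wild type (SE 0.25, adjusted p = 0.578), where 0.951% of 5991 genes were called.

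Between old cells of the strains, HAC1 footprints were higher in the deletion, by a log2 fold change of 1.28 (SE 0.16, 2.43-fold, adjusted p = 1.26e-05). The change was the 14th highest of 5252 genes, of which 6.15% were called. This fit held the 4 old footprint libraries alone, a choice made with earlier results known, because young replicates differ far more than old ones. With all 8 footprint libraries in 1 fit the log2 fold change was 1.30, the adjusted p was 0.806, and 0% of genes were called. Over the 10 alternatives, 9 kept the call.

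Genes that mark daughter cells moved with this contrast. All 10 of the daughter-specific genes listed for the check (DSE1, DSE2, DSE3, DSE4, SCW11, CTS1, EGT2, AMN1, BUD9 and PRY3) were lower in old deletion than in old wild-type footprints. Their summed level was 801 and 951 CPM in the old deletion libraries, 1768 and 1922 in the old wild-type libraries, and 1555 to 2499 in the 4 young ones, and none of the 10 was at 0 in any library. Of the same 10 genes, 6 fell with age in the deletion strain (1 without either old deletion library) and 0 were called in the wild type. Of all genes, 17.2% were called with age in deletion footprints, 2.98% with age in wild-type footprints and 6.15% between old strains. In mRNA the summed level of the 10 genes was 1103 and 1580 CPM in young and 1674 and 1804 in old wild type. It was 1353 and 1263 in young deletion cells and 1109 in the single old deletion library. The part of these genes in the HAC1 result was not tested.

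HAC1 had few footprints for its mRNA in every lysate. The ratio of footprint CPM to mRNA CPM in libraries with the same replicate number was 0.0160 and 0.0103 in young wild type, 0.0609 and 0.0871 in old wild type, and 0.00784 and 0.0158 in young deletion cells. The single old deletion lysate with both assays had 0.189, and its footprint library was the higher in HAC1 (89.3 CPM, against 66.7 in the other). The old ratios were all above the young ones, and the old deletion value was above both old wild-type values. For comparison, the median ratio of all genes was 0.679 to 0.713, and the other 9 genes ran from 0.340 for IRE1 to 1.69 for PDI1. Ranked among up to 5241 protein-coding genes, HAC1 lay at the 1.51 to 2.96 percentile from the bottom in 6 lysates and at 6.20 in the old deletion lysate.

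**Figure D2:**
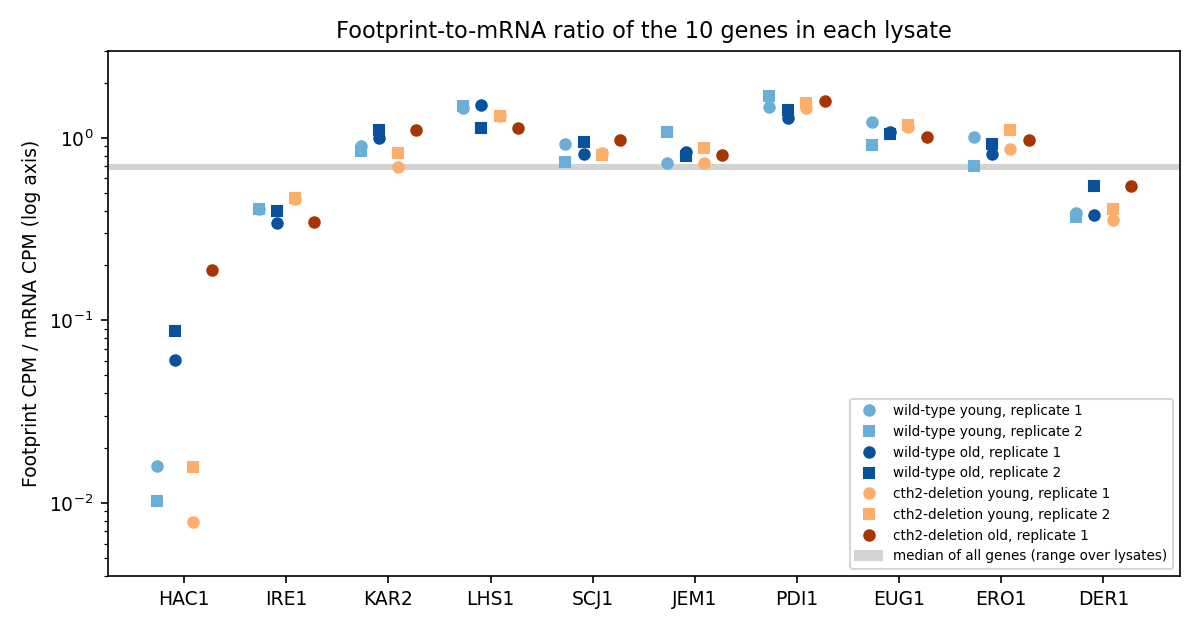
Ratio of footprint CPM to mRNA CPM on a log axis for each of the 10 genes in the 7 lysates with both assays, coloured by strain and age, with the grey band giving the range of the median over all genes. HAC1 lies between 0.00784 and 0.189, below the other 9 genes in every lysate, and its 3 old points are above its 4 young ones.

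A change in the ratio was tested over all 15 libraries, as an interaction term for assay by age or assay by strain. In the wild type the HAC1 ratio had a log2 fold change with age of 2.45 (SE 0.53, unadjusted p = 0.000885), the 148th highest of 6050 genes. It missed the threshold after adjustment (adjusted p = 0.228, 0.0661% of genes called). With the lysate as a replicate block, since both assays came from aliquots of a lysate, the log2 fold change was 2.46 and the adjusted p was 5.99e-10, and 3 of 14 alternatives called it, with adjusted p up to 0.962. Of the other members, 0 were called for this ratio by edgeR, with or without the block, or by DESeq2. Their log2 fold changes lay between -0.21 for PDI1 and 0.31 for DER1. In young cells the strain difference of the HAC1 ratio was -0.05 (SE 0.57), with 0% of 6050 genes called (107 at an unadjusted p under 0.05).

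IRE1 encodes the sensor kinase and endonuclease that cuts HAC1 mRNA. IRE1 footprints were at 16.4 and 19.5 CPM in young wild type, 18.2 and 19.9 in old wild type, 19.8 and 22.2 in young deletion, and 24.2 and 20.7 in old deletion cells. The ranges lay close together, and the old deletion libraries were above both old wild-type libraries. Its log2 fold change with age was 0.09 (SE 0.18) in wild-type footprints and 0.08 (SE 0.19) in deletion footprints, and 0.21 (SE 0.20) between old strains, none called. IRE1 mRNA was at 40.2 and 47.7 CPM in young and 53.7 and 49.8 in old wild type, and the single old deletion library had the highest value, 69.4.

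KAR2 encodes the ER Hsp70 chaperone BiP, the standard readout of the response. Its upstream sequence is printed because it holds the element CAGCGTG through which the response is known to act on KAR2, here in capitals, starting 160 bases before the start codon. LHS1, a second ER Hsp70 that acts as nucleotide exchange factor for Kar2, has the reverse complement CACGCTG 99 bases before its start codon.
KAR2 upstream, chrX:381147-381193, plus strand: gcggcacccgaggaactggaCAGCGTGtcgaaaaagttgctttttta
LHS1 upstream, chrXI:296311-296357, plus strand: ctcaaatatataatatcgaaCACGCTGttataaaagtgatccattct
Searched on both strands of the 500 bases before each start codon, CAGCGTG was in 2 of the 10 genes and in 2.33% of 6008 protein-coding genes. The looser CAGNGTG, which overlaps it, was in the same 2 members and in 10.2% of genes. TACGTGT, a core of a related element, was in EUG1 and ERO1 and in 4.56% of genes. These are letter matches, and binding was not measured.

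KAR2 passed the test in none of the 9 comparisons. KAR2 footprints were at 1865 and 1696 CPM in young wild type, 1566 and 1506 in old wild type, 1644 and 1584 in young deletion, and 1683 and 1481 in old deletion cells. Old wild-type libraries were below young ones, and in the deletion strain the ages overlapped. The log2 fold change of KAR2 footprints was -0.21 with age in the wild type (SE 0.15), -0.03 with age in the deletion strain (SE 0.15) and 0.04 between old strains (SE 0.10), and none was called. KAR2 mRNA was at 2060 and 1993 CPM in young and 1571 and 1365 in old wild type, and old less young was -0.46 on the log2 scale (SE 0.22, adjusted p = 0.292).

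LHS1 footprints were at 136 and 171 CPM in young wild type, 122 and 113 in old wild type, 162 and 146 in young deletion, and 154 and 131 in old deletion cells. The old wild-type libraries were the lowest. The log2 fold change with age was -0.39 (SE 0.17, adjusted p = 0.233) in the wild type and -0.12 (SE 0.17) in the deletion strain. Between old strains it was 0.27 (SE 0.12, adjusted p = 0.246).

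SCJ1 and JEM1 encode J-domain co-chaperones of Kar2, and their values were higher in old cells. JEM1 footprints were at 23.7 and 30.1 CPM in young wild type, 36.9 and 32.6 in old wild type, 23.7 and 25.1 in young deletion, and 46.2 and 41.0 in old deletion cells. JEM1 rose with age in deletion footprints by 0.83 on the log2 scale (SE 0.18, adjusted p = 0.0269), the only member besides HAC1 called there. That call was lost when any 1 of the 4 libraries was left out, at adjusted p from 0.0508 without young deletion replicate 1 to 0.153 without old deletion replicate 1. It was also lost with only the libraries compared in the fit (adjusted p = 0.0648), with a replicate block (0.0661) and with a block crossed between young and old (0.0516), so that 5 of 12 alternatives called JEM1. In the wild type the log2 fold change of JEM1 was 0.37 in footprints (SE 0.18) and 0.50 in mRNA (SE 0.19), neither called.

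SCJ1 footprints were at 70.0 and 94.1 CPM in young wild type, 110 and 131 in old wild type, 94.8 and 61.6 in young deletion, and 131 and 142 in old deletion cells. Old libraries were above young ones in each strain, and the young replicates were far apart. The log2 fold change with age was 0.55 (SE 0.25, adjusted p = 0.238) in the wild type and 0.81 (SE 0.25, adjusted p = 0.0646) in the deletion strain. DESeq2 called the second (adjusted p = 0.0473, with a range of 5.53e-07 to 0.257 over 12 alternatives).

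PDI1, EUG1 and ERO1 serve disulfide formation. PDI1 encodes protein disulfide isomerase, EUG1 a related protein, and ERO1 the oxidase that supplies Pdi1 with oxidising equivalents. PDI1 footprints were at 2259 and 2120 CPM in young wild type, 1574 and 1536 in old wild type, 2143 and 2326 in young deletion, and 1676 and 1550 in old deletion cells. The old libraries of each strain were below the young ones. The log2 fold change with age was -0.49 (SE 0.14, adjusted p = 0.113) in the wild type and -0.47 (SE 0.14, adjusted p = 0.062) in the deletion strain. DESeq2 called both (adjusted p = 0.0305 and 0.0250), with 2 of 12 alternatives calling each and adjusted p up to 0.463 and 0.976. PDI1 mRNA had a log2 fold change of -0.27 with age in the wild type (SE 0.21).

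EUG1 footprints were at 75.6 and 77.7 CPM in young wild type, 103.5 and 101.4 in old wild type, 78.5 and 82.1 in young deletion, and 93.5 and 86.2 in old deletion cells. Old libraries were above young ones in each strain, and those of the old deletion lay below those of the old wild type. Its log2 fold change with age was 0.42 (SE 0.13, adjusted p = 0.134) in the wild type and 0.16 (SE 0.13) in the deletion strain, and -0.20 (SE 0.12) between old strains. EUG1 and PDI1, related in sequence, thus had age changes of opposite sign that both missed the threshold. EUG1 was also the only 1 of the 10 genes with the AU-rich motif UAUUUAUU or UUAUUUAU in the 300 bases after its stop codon, a motif found there in 10.5% of 6008 genes.

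ERO1 footprints were at 274 and 182 CPM in young wild type, 200.3 and 229 in old wild type, 209 and 275 in young deletion, and 298 and 274 in old deletion cells. The young replicates overlapped between strains, the highest value was in an old deletion library, and the old strains separated. Between old strains ERO1 footprints were higher in the deletion by 0.41 on the log2 scale (SE 0.11, adjusted p = 0.0299), which with HAC1 made 2 of 10 members called higher and 0 lower, where 6.15% of all genes were called (111 higher and 212 lower). The call was lost with DESeq2 (adjusted p = 0.0692), with all 8 footprint libraries in 1 fit (adjusted p = 1), without old wild-type replicate 1 (0.214) and without old deletion replicate 1 (0.172). The daughter-cell genes named above moved with this contrast too.

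**Figure D3:**
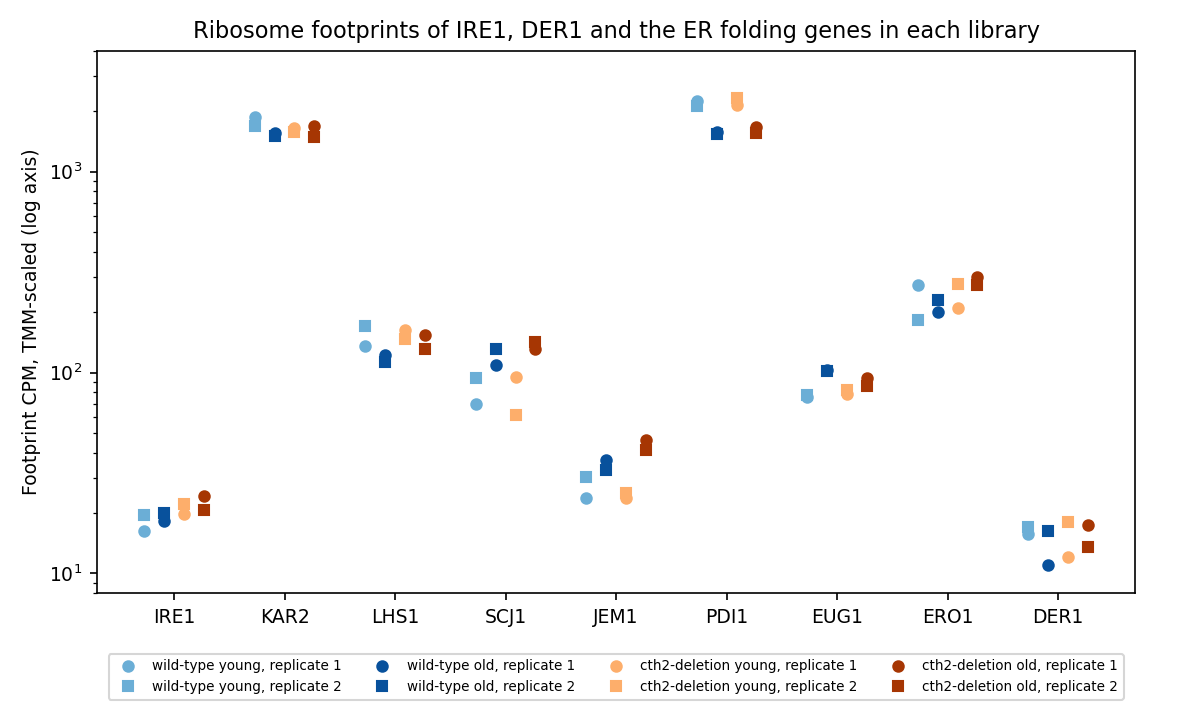
Footprint level of IRE1, DER1 and the 7 ER folding genes in each library, as TMM-scaled CPM on a log axis, with colours for strain and age and shapes for replicate number. Values run from 11.0 for DER1 to 2326 for PDI1, and the age and strain differences within a gene are small beside those of HAC1.

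DER1 encodes a membrane protein of ER-associated degradation (ERAD), which returns misfolded proteins to the cytosol. DER1 footprints were at 15.8 and 17.0 CPM in young wild type, 11.0 and 16.3 in old wild type, 12.0 and 18.1 in young deletion, and 17.3 and 13.5 in old deletion cells. Apart from young wild type, replicates spanned most of the range. No footprint comparison called it, and its mRNA, at 40.5 and 46.2 CPM in young against 29.2 and 29.8 in old wild type, differed by -0.56 on the log2 scale, old less young (SE 0.21, adjusted p = 0.223).

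Read against all genes, the 10 members had age changes of either sign. In wild-type mRNA 0 of 10 were called by edgeR or DESeq2, and 2 had an unadjusted p under 0.05. Old libraries were above young without overlap for 4 members and below for 4, as were 30.1% and 27.8% of all genes. In wild-type footprints 0 were called by edgeR and 2 by DESeq2, with 3 at an unadjusted p under 0.05, and 4 members were above and 3 below without overlap against 30.7% and 27.3% of genes. In deletion footprints 2 were called higher and 0 lower, a count near the 17.2% of all genes called there, and 4 were above and 1 below without overlap against 33.4% and 31.9% of genes. The median log2 fold change of the members with age was -0.16 in wild-type mRNA, 0.00 in wild-type footprints and 0.12 in deletion footprints, beside 0.00, 0.01 and 0.00 for all genes.

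Between old strains 6 of 10 members were higher in deletion footprints without overlap (HAC1, IRE1, LHS1, SCJ1, JEM1 and ERO1) and 1 was lower (EUG1), against 24.5% and 23.8% of genes. Their median log2 fold change was 0.20, beside 0.00 for all genes, and 9 of 10 values were above 0. That median was 0.11 without old wild-type replicate 1, 0.13 without old deletion replicate 1 and 0.35 without old deletion replicate 2. In young cells no test told the strains apart for any member. There 0 of 10 were called in mRNA or in footprints by edgeR or DESeq2, 0 had an unadjusted p under 0.05, and the medians were 0.03 and 0.02. Of all genes, 0% were called in mRNA (99 at an unadjusted p under 0.05) and 0% in footprints (92, with 1 called by DESeq2). Without overlap between young strains, IRE1 and EUG1 were higher and KAR2 was lower in deletion footprints, and ERO1 was lower in deletion mRNA. The share of all genes separated in this way was not counted for young cells.

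**Figure D4:**
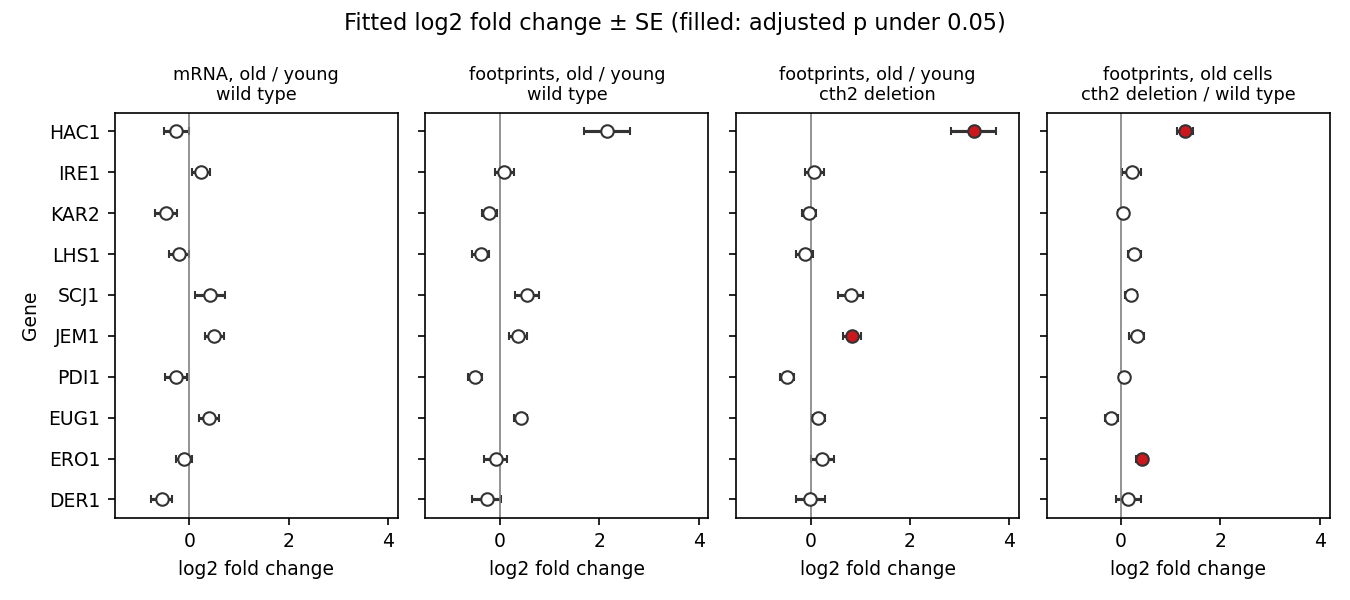
Fitted log2 fold change with its SE (bars) of each of the 10 genes for age in wild-type mRNA, age in wild-type footprints, age in deletion footprints, and deletion against wild type in old footprints, filled where the adjusted p is under 0.05. HAC1 stands at 2.17, 3.29 and 1.28 in the 3 footprint panels and at -0.26 in mRNA, and the other 9 genes lie between -0.56 and 0.83.

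The single old deletion RNA-seq library allows description only. In it 5 members were above both old wild-type libraries (IRE1, LHS1, JEM1, ERO1 and DER1), beside 37.7% of 5331 genes. PDI1 and EUG1 were below both, but the share of all genes below both was not counted. HAC1 mRNA there was 0.13 above the old wild type on the log2 scale. LHS1 had the largest such difference of the members, 0.60.

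Per kilobase of coding sequence, HAC1 mRNA was among the most abundant of the 10, at 728 ± 122 CPM per kb in young wild type (SD, n = 2), next to KAR2 at 989 ± 23.0 and PDI1 at 888 ± 125. The libraries of HAC1 and PDI1 overlapped. ERO1 followed at 157 ± 5.22, then SCJ1 at 89.5 ± 32.2 and DER1 at 68.2 ± 6.31, and the libraries of SCJ1 and DER1 overlapped. IRE1 was the lowest at 13.1 ± 1.59, next to JEM1 at 15.5 ± 1.64. Their libraries came close without overlap (12.01 and 14.26 for IRE1, 16.69 and 14.37 for JEM1), and the difference was not tested. In footprints the order at the top was PDI1 with 1395 ± 63.0 and KAR2 with 869 ± 58.6. By its mean HAC1 stood at 9.79 ± 4.51, between IRE1 at 5.36 ± 0.662 and JEM1 at 13.9 ± 2.33. The footprint libraries of HAC1 (12.99 and 6.60) and JEM1 (12.23 and 15.52) overlapped.

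Calls among 60 further ER and secretory genes in 7 lists are given beside the share of all genes called. In wild-type mRNA 0 of 60 were called by edgeR, where 0.951% of all genes were called. There 8 had an unadjusted p under 0.05 and 1 was called lower by DESeq2. In wild-type footprints 3 of 60 rose with age and 0 fell, where 2.98% of all genes were called. The 3 were FPR2, an ER peptidyl-prolyl isomerase (log2 fold change 0.83, SE 0.15), OST4, a small subunit of the oligosaccharyltransferase (1.38, SE 0.15), and INO1, inositol-3-phosphate synthase (3.44, SE 0.44). INO1 transcription is known to depend on Hac1 and Ire1 when inositol is short. INO1 footprints were at 1.41 and 2.79 CPM in young wild type, 22.0 and 24.5 in old wild type, 1.41 and 2.85 in young deletion, and 46.8 and 26.6 in old deletion cells. In these young libraries 3 counts equal 0.744 and 0.748 CPM (wild type) and 0.910 and 0.484 CPM (deletion). The young INO1 values, and the fold changes over them, thus rest on few counts. Both old groups were above both young groups. INO1 mRNA was at 15.7 and 9.72 CPM in young and 22.7 and 21.3 in old wild type, and its footprint-to-mRNA ratio had a log2 fold change with age of 2.65 (SE 0.56, adjusted p = 0.211), close to that of HAC1 in size and likewise not called. Leaving out each library in turn left 0 to 2 of the 60 called, 0 without either old library.

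In deletion footprints 7 of 60 rose with age and 5 fell, with 17.2% of all genes called. With total-count scaling, which shifts the median gene upward, the counts were 20 and 1, and without old deletion replicate 1 or 2 they were 2 and 0, or 1 and 0. INO1 rose by 3.96 (log2, SE 0.44), INO2, an activator of phospholipid genes, by 1.74 (SE 0.48), FPR2 by 1.30 (SE 0.15) and the lectin chaperone CNE1 by 1.06 (SE 0.22). CUE1, which recruits Ubc7 in ERAD, rose by 0.93 (SE 0.14), OST4 by 0.93 (SE 0.15) and the translocon gene SEC62 by 0.77 (SE 0.21). CHO2, a phospholipid methyltransferase, had a log2 fold change of -1.35 (SE 0.14). The ERAD genes UBC6, UBC7 and HRD3 had -0.72 (SE 0.15), -0.72 (SE 0.19) and -0.58 (SE 0.15), and the isomerase CPR5 had -0.62 (SE 0.14). ERAD genes thus went both ways, with 1 of 14 higher and 3 lower. Of the 4 genes that process HAC1 mRNA or act on Ire1, among them the ligase TRL1, 0 were called in any comparison. Nor was any of the 7 genes of COPII, the coat of vesicles that leave the ER.

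Between old strains 0 of the 60 were higher in deletion footprints and 2 were lower, where 6.15% of all genes were called. Both genes act in phosphatidylcholine synthesis by methylation. CHO2 was at 130 and 133 CPM in old deletion against 233 and 242 in old wild-type cells (log2 fold change -0.85, SE 0.11). OPI3 was at 82.0 and 72.1 against 107 and 113 (-0.52, SE 0.13). Neither was called with all 8 footprint libraries in 1 fit, where 0 genes passed.

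Chaperones of the cytosol were listed as a contrast. In deletion footprints 8 of 15 fell with age and 1 rose, where 17.2% of all genes were called. The median log2 fold change of the 15 was -1.17, beside 0.12 for the 10 ER members. HSP104 had -2.57 (SE 0.61), SSA1 -1.97 (SE 0.30) and HSP82 -1.68 (SE 0.30), while SSA3, an inducible Hsp70, had 2.75 (SE 0.68). In wild-type footprints 2 of 15, SSA2 and STI1, fell (both -0.83), where 2.98% of all genes were called, and the median was -0.83. Between old strains 9 of 15 were lower in the deletion and SSA3 was higher (0.59, SE 0.17), where 6.15% of all genes were called. The median there was -0.41. The 8 calls of the deletion strain became 0 without either old deletion library, and the 9 calls between old strains became 1 without old deletion replicate 2 and 4 without old wild-type replicate 1. The 2 wild-type calls became 7 with DESeq2 and 0 with total-count scaling. Young replicates of HSP26 were far apart, at 3175 and 464 CPM in wild-type and 474 and 3062 CPM in deletion footprints. Its old libraries had 480 and 518 CPM in wild-type and 388 and 339 CPM in deletion footprints. SSA1 was above its old levels in every young footprint library, at 3373 to 5745 against 1091 to 1754 CPM.

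The genes whose pattern over the 15 libraries was most like that of HAC1, with each assay centred on its own mean, were MRPL10 (Pearson r = 0.922), PAH1 (0.917), PHO87 (0.916), ADR1 (0.914) and YAT2 (0.912), among 4580 genes. MRPL10 encodes a mitochondrial ribosomal protein, PAH1 phosphatidate phosphatase, PHO87 a phosphate transporter, ADR1 a transcription factor of glucose-free growth, and YAT2 a carnitine acetyltransferase. For KAR2 they were RPP2A (0.911), VMA16 (0.904), COX5A (0.903), RPP1A (0.902) and HCH1 (0.897). The correlation between HAC1 and KAR2 was -0.10, and that of HAC1 with its nearest fellow member, JEM1, was 0.58. The points share lysates, libraries and the scaling, and these values are descriptions.

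Libraries held 1629345 to 6198680 counts. TIS11 was at 6.41 to 78.8 CPM in wild-type mRNA and 0.318 to 3.52 in deletion mRNA, and at 7.80 to 117 in wild-type and 0.354 to 5.33 in deletion footprints, each range below its wild-type counterpart at the same age. Scaled by total counts in place of TMM, the median gene shifted with age by 0.31 on the log2 scale in wild-type mRNA, 0.34 in wild-type footprints and 0.46 in deletion footprints. Changes above are relative to the median gene, and the smaller negative ones with age (ERO1, LHS1, PDI1 and HAC1 in mRNA, KAR2, ERO1 and DER1 in wild-type footprints, KAR2, LHS1 and DER1 in deletion footprints) turn positive without that reference. Over all genes, calls split into 107 higher and 51 lower in wild-type footprints with age (657 and 34 by total counts), 486 and 428 in deletion footprints with age (1688 and 139), and 111 and 212 between old strains (189 and 178). The 2 replicates of young groups differed by a coefficient of variation of 27.2% to 30.5%, against 7.58% to 8.5% in old groups. The young deviations ran opposite between same-numbered libraries of the strains (r = -0.699 in mRNA and -0.838 in footprints). The spread of young replicates was thus shared by many genes, and its cause was not tested.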

How the data were processed

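The deposited values were raw counts per gene in 15 libraries, whole numbers given by the authors with no normalisation, per the file headers. The submitters' processing notes name cutadapt 3.4, Bowtie 1.1.2, STAR 2.7.9a and the R64 build, without their order. The counting program and its use of strand were not given in the sources used here. Per the labels' protocols, footprints were made with RNase I in lysates with cycloheximide and taken from the 80S fraction, while mRNA was selected with an mRNA bead kit and hydrolysed.

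Coordinates and sequences came from the RefSeq R64 annotation and genome, which matched 6047 of the 7127 identifiers. No member overlapped another annotated gene or had a copy of at least 90% identity over 50% of its length. Identifiers outside that annotation could still share reads with a member.

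Counts were tested with edgeR 4.0.16 in R 4.3.3 (TMM factors, filterByExpr by group, robust quasi-likelihood fit, 1 mean per group, Benjamini-Hochberg over all genes, called at an adjusted p under 0.05), and SE is the log2 fold change over the square root of F. The fits held 7 RNA-seq libraries, 8 footprint libraries, the 4 old footprint libraries, or all 15. DESeq2 1.42.0, other scalings, no filter, replicate blocks and leaving out each library were alternatives. The members, lists and tests were chosen with earlier results of these data known. All members were named, with at most 4 called genes per list and direction, by smallest adjusted p, and the 5 genes most like HAC1 and KAR2 by Pearson r of log2 CPM with a prior count of 2, among genes of at least 10 CPM in both assays.

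Both assays used aliquots of a lysate, per the labels' protocols, and the replicate number was taken to pair the assays. Same-numbered libraries deviated together in young wild type (r = 0.761) and young deletion cells (r = 0.797), but only weakly in old wild type (r = 0.150). In old deletion cells, with 1 RNA-seq library, the pairing could not be checked. Totals of 1629345 to 6198680 counts put 3 counts at 0.484 to 1.84 CPM, and these floors and all Poisson intervals cover counting error only. The scripts were tested on simulated counts.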

Additional observations from a re-analysis of the deposited data

How the results depend on the processing

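For the members, 514 values under alternatives were set beside 45 main values, and 442 kept their direction and their side of the threshold, 31 changed sign, 27 newly passed and 14 no longer passed. The sign changes were of values that had passed no test, and the cause was not tested except where the scaling itself moves every gene.

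DESeq2 called 260 genes in wild-type mRNA with age (57 by edgeR), 319 in wild-type footprints (158), 196 between old strains (323), 20 for the wild-type ratio (4), 4 for the strain difference of the age change (0) and 1 between young strains in footprints (0). Of members it called 2 in wild-type footprints with age, 4 in deletion footprints, 1 between old strains and 1 (HAC1) for the wild-type ratio.

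Total-count scaling called 212 genes in wild-type mRNA with age, 691 in wild-type footprints (3 members) and 1827 in deletion footprints (4 members, 914 genes in the main result). It turned log2 fold changes with age positive for HAC1 (0.0473), LHS1 (0.109), PDI1 (0.0464) and ERO1 (0.207) in wild-type mRNA, for KAR2 (0.125), ERO1 (0.257) and DER1 (0.0722) in wild-type footprints, and for KAR2 (0.434), LHS1 (0.346) and DER1 (0.458) in deletion footprints. With only the libraries compared in the fit, 91, 74 and 164 genes were called with age in wild-type mRNA, wild-type footprints and deletion footprints. In the last of these 1 member was called, and the log2 fold change of DER1 turned positive (0.0038, not called). With all 8 footprint libraries in 1 fit, 0 genes and 0 members were called between old strains.

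Equal replicate numbers did not pair strains or ages. Between young strains the r of deviations was -0.699 in mRNA and -0.838 in footprints, so young libraries of the strains deviated together with their numbers crossed. The r was -0.0218 between old strains, and 0.0161, -0.159 and -0.199 between ages. What the crossed young libraries shared was not tested. With the number as a replicate block, 0 genes were called with age in wild-type mRNA, 46 in wild-type footprints and 252 in deletion footprints. The last held 1 member, HAC1, since JEM1 was lost (adjusted p = 0.0661). The log2 fold change of DER1 there was 0.0267, not called. The block changed no other call of a member. With the lysate as a block, 411 genes and 1 member were called for the wild-type ratio and 4 genes for the young strain ratio. With the young numbers crossed between strains, chosen after seeing the data, calls were 2119 genes with 5 members in wild-type mRNA with age, 2297 with 5 in wild-type footprints, 2811 with 5 in deletion footprints, 23 and 51 between young strains in mRNA and footprints, 185 with 1 (HAC1) for the strain difference and 236 with 1 for the wild-type ratio. With numbers crossed between ages they were 59 in wild-type footprints and 251 with 1 member in deletion footprints. The log2 fold change of DER1 in that deletion fit was 0.0115, not called.

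Leaving out each library in turn gave 1 to 15 genes called in wild-type mRNA with age, 14 to 77 in wild-type footprints, 46 to 1206 in deletion footprints (0 to 2 members), 200 to 323 between old strains (1 to 2 members) and 0 to 4 for the wild-type ratio. Log2 fold changes that changed sign ran from -0.353 to 0.238 for ERO1 and -0.033 to 0.218 for IRE1 in wild-type footprints with age. In deletion footprints with age they ran from -0.255 to 0.331 for DER1, -0.0304 to 0.189 for IRE1 and -0.126 to 0.052 for KAR2. Between old strains they ran from -0.121 to 0.443 for DER1, -0.0557 to 0.133 for KAR2 and -0.0074 to 0.11 for PDI1. For HAC1 between young strains they ran from -0.0719 to 0.424 in mRNA, -0.844 to 0.759 in footprints and -1.03 to 0.557 for the ratio. The thinnest young libraries held 11 and 17 HAC1 footprint counts, and the young deletion replicates differed by more than their counting intervals.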
